A study of Mus musculus with 4 samples.

Results

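Serum amyloid-rich spots of mouse liver were compared with serum amyloid-poor spots of the same tissue sections. A spot is one capture area of a 10x Visium slide, which takes up the RNA of several neighbouring cells, so shares below are shares of spots and spots are not named by cell type. For every spot with at least 500 unique molecular identifiers (UMIs, 1 per captured transcript), the UMIs of Saa1 and Saa2 were divided by all its UMIs. This share was ranked within 5 equal bins of total UMIs in each section. The top 15% of the ranking were called rich and the bottom 50% poor. Of 8246 spots, 1247 were rich, 4118 poor and 2881 lay between. The rich spots numbered 310 and 285 in the sections MAFL-1 and MAFL-2, and 372 and 280 in MASH-1 and MASH-2.

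The 4 sections came from fresh livers embedded in OCT medium and snap-frozen. All groups were on a diet labelled WD: the 2 MAFL sections after 8 weeks and the 2 MASH sections after 16 weeks. Model and weeks change together and cannot be told apart. The labels name neither strain nor age, give no section from an untreated liver, and do not say whether 2 sections of a group came from different animals, so the p-values below measure only the spread between these sections.

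Serum amyloid A proteins are acute phase proteins that hepatocytes secrete into the blood, where they travel on high density lipoprotein. In the mouse liver, Saa1 and Saa2 are switched on by interleukin 6, interleukin 1 and tumour necrosis factor, acting through STAT3, C/EBP and NF-kB, while Saa3 is also made by macrophages and other cells and Saa4 is largely constitutive. Other positive acute phase genes encode haptoglobin, hemopexin, orosomucoids, lipocalin 2 and fibrinogen, and the negative acute phase genes encode plasma proteins such as albumin and transthyretin whose synthesis falls.

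The 4 serum amyloid genes lie side by side on mouse chromosome 7, in the order Saa3 (46711998 to 46719615), Saa4 (46727992 to 46732603), Saa1 (46740497 to 46743181) and Saa2 (46751833 to 46754313) of the RefSeq build GRCm38.p6. The RefSeq promoter windows below hold 300 bases, from 250 before to 50 after an annotated start, read 5′ to 3′ on the gene's strand. The 4 Saa windows are shown because the spots were chosen by Saa1 and Saa2, while Saa3 and Saa4 were free to differ. Those of Lcn2 and Orm2 are shown because these genes rose with Saa3. The windows are chr7:46742931-46743230 (Saa1, minus strand), chr7:46751583-46751882 (Saa2, plus), chr7:46715627-46715926 (Saa3, minus), chr7:46732554-46732853 (Saa4, minus), chr2:32387690-32387989 (Lcn2, minus) and chr4:63362199-63362498 (Orm2, plus). The windows of Saa1 and Saa3 belong to starts inside the spans of their annotated genes. Capitals mark matches to the motifs that were searched.
Saa1: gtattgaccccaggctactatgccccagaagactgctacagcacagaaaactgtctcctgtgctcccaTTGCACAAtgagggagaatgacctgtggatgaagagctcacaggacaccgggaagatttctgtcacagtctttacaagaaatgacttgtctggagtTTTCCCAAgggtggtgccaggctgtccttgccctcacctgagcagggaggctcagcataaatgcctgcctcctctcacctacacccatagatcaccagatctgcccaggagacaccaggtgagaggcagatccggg
Saa2: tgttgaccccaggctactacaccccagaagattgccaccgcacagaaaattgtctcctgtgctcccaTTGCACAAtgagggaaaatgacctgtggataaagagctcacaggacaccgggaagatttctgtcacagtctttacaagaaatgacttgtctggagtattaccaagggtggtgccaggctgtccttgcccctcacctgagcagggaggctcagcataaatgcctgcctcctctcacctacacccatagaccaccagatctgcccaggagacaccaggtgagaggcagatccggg
Saa3: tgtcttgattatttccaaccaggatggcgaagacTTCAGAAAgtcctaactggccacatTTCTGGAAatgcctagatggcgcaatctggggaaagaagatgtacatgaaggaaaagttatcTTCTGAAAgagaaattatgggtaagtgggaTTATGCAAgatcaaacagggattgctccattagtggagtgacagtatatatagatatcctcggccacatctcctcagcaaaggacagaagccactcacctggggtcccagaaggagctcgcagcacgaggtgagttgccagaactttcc
Saa4: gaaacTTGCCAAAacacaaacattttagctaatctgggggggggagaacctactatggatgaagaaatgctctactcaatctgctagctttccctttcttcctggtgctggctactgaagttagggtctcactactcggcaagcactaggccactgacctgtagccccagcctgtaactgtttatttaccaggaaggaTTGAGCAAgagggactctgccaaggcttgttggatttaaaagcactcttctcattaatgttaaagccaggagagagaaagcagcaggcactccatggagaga
Lcn2: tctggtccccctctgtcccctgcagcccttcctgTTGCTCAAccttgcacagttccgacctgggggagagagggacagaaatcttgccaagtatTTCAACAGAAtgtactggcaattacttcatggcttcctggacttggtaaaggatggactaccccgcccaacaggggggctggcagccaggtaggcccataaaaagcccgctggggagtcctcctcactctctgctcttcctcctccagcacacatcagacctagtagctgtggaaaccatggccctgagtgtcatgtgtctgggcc
Orm2: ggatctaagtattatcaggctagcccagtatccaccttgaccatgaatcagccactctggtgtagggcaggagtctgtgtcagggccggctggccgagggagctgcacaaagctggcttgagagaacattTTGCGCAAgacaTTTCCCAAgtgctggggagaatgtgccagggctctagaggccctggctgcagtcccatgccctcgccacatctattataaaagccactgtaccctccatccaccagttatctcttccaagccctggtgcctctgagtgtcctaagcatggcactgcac
The windows of Saa1 and Saa2 were identical at 287 of 301 aligned positions (95.3%), against 54.2% for Saa1 and Saa3 and 50.7% for Saa1 and Saa4. Reads of near-identical transcripts may be split between Saa1 and Saa2, and RefSeq lists each of them under the other's symbol as a synonym, so their separate values are uncertain. Both strands were searched for C/EBP (TTNCNNAA), STAT3 (TTC and GAA with 3 or with 4 bases of any kind between them) and NF-kB (GGG, then any 2 bases, then TTTCC or TTCCC). Of 32851 RefSeq windows of this length, 40.7% held the C/EBP motif, 8.30% and 6.95% the shorter and the longer STAT3 motif, and 1.63% and 1.75% the NF-kB motif ending in TTTCC and in TTCCC. Saa1 had C/EBP matches at -182 and -86 from the start and Saa2 1 match at -183. Saa3 had C/EBP matches at -216, -191, -129 and -99, all on the opposite strand, and Saa4 had them at -245 and, on the opposite strand, at -52. Lcn2 had a C/EBP match at -216 and a longer STAT3 match at -156, and Orm2 had C/EBP matches at -120 and -108. No match overlapped another in these 6 windows. A match is a stretch of letters, not a bound site.

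The sections held 32249289 to 63808230 UMIs, with a median of 15430.5 to 25291 UMIs per spot. Rich and poor spots had like medians, since ranking was done within bins: 15344.5 against 15436.5 in MAFL-1, 19375 against 19731.5 in MAFL-2, 25429 against 25142 in MASH-1 and 19950 against 20358 in MASH-2. Alb, the plasma protein that marks hepatocytes, took 42323 to 52641 counts per 1000000 UMIs (CPM, scaled between libraries by the trimmed mean of M values) in the rich spots and 50618 to 56704 in the poor spots. Between 1182 and 1725 barcodes recurred in any 2 sections, as barcodes on these slides name positions.

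Saa1 and Saa2 chose the spots, so their values are a description with no test. Together they took 0.153% of the UMIs of rich spots in MAFL-1, 0.261% in MAFL-2, 0.246% in MASH-1 and 0.282% in MASH-2. In the poor spots they took 0.0626%, 0.115%, 0.0286% and 0.0429%. The mean was 0.236% ± 0.0569 in rich and 0.0624% ± 0.0380 in poor spots (SD, n = 4). The rich spots of MAFL-2 and of both MASH sections thus had similar shares, while the poor spots of MASH were below those of both MAFL sections. The ratio of rich to poor was 2.44 and 2.26 in MAFL and 8.61 and 6.56 in MASH. Taken apart, Saa1 differed 2.32-fold and 2.18-fold in MAFL and 7.99-fold and 5.85-fold in MASH, and Saa2 differed 2.95-fold and 2.54-fold in MAFL and 10.5-fold and 9.19-fold in MASH. Over whole sections Saa1 stood at 714, 1202, 548 and 728 plain CPM (not scaled between libraries) and Saa2 at 182, 370, 211 and 262. The section levels of both genes overlapped between the groups for Saa1 (MASH-2 above MAFL-1) and for Saa2.

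The threshold cut through a continuum. Spots within 2% of the ranking inside the rich class had a share of 0.125% in MAFL-1, 0.208% in MAFL-2, 0.127% in MASH-1 and 0.168% in MASH-2. Those within 2% outside it had 0.121%, 0.203%, 0.116% and 0.156%. The highest single spots reached 0.859%, 1.03%, 1.13% and 0.830%. A rich spot held a median of 23 Saa1 and Saa2 UMIs in MAFL-1, 48 in MAFL-2 and 46 in each MASH section, and a poor spot 10, 23, 7 and 9. After each spot was thinned to 5000 UMIs (16 to 43 shallower spots per section left out), the variance of the Saa1 and Saa2 count was 1.72 and 2.17 times its mean in MAFL and 6.90 and 4.85 times in MASH. Pure counting error gives a ratio of 1, so the ranking of MAFL spots rested on less variation beyond counting than that of MASH spots. Without thinning, 1 spot of MAFL-1, 16 of MASH-1 and 8 of MASH-2 had no UMI of either gene.

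**Figure D1:**
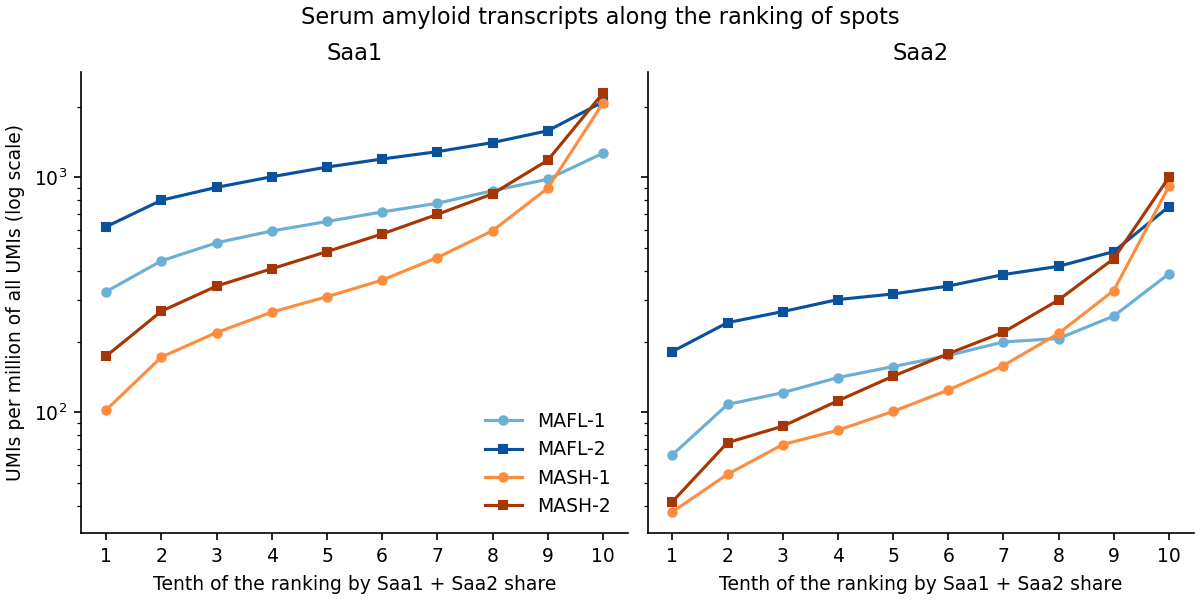
Plain CPM of Saa1 and Saa2 (log axis) in each of 10 equal steps of the Saa1 and Saa2 ranking, 1 line per section. Saa1 went from 327 to 1267 in MAFL-1 and from 617 to 2094 in MAFL-2, and from 103 to 2068 in MASH-1 and from 174 to 2282 in MASH-2, where the last step stood well above the ninth.

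Over 10 equal steps of the ranking, Saa1 of MASH-1 stood at 103 plain CPM in the lowest, 900 in the ninth and 2068 in the highest. In MASH-2 the same steps had 174, 1183 and 2282. In both MAFL sections the lowest step was higher (327 and 617), and the highest had 1267 and 2094. The MASH sections therefore spanned a wider range, mostly through lower values at the bottom of the ranking. These steps were made from the same counts and carry no test.

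The place of the rich spots along the liver lobule differed between sections. Each spot was scored by 12 zone genes (6 periportal and 6 pericentral hepatocyte genes, which mark the blood inlet and outlet of the lobule), and each section was cut into 3 equal classes. Of the rich spots of MAFL-2, 65.3% (exact binomial 95% interval 59.4% to 70.8%) were pericentral and 11.9% (8.40% to 16.3%) periportal. In MASH-1 20.4% (16.4% to 24.9%) were pericentral and 43.0% (37.9% to 48.2%) periportal, and in MASH-2 20.4% (15.8% to 25.6%) and 44.6% (38.7% to 50.7%). In MAFL-1 24.5% (19.8% to 29.7%) were pericentral, 39.4% (33.9% to 45.0%) middle and 36.1% (30.8% to 41.8%) periportal. Of the poor spots, 17.4% were pericentral in MAFL-2 against 37.4% and 40.6% in MASH-1 and MASH-2 and 32.8% in MAFL-1. The intervals cover counting error only, and neighbouring spots are not independent. Over sections the rich periportal share was 33.9% ± 15.1 and the pericentral share 32.6% ± 21.8 (SD, n = 4). The periportal shares of both MASH sections were above those of both MAFL sections, but 2 against 2 sections allow no exact two-sided p below 0.3333. This order was lost when the zone score averaged z-scores of the 12 genes: MAFL-1 then had 38.4% periportal, MASH-1 41.1% and MASH-2 38.2%, and the largest class of rich spots in MASH-2 was the middle one (39.6%).

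Without reference to the classes, Saa1 and Saa2 took 0.0589%, 0.0734% and 0.0890% of the UMIs in the pericentral, middle and periportal spots of MASH-1. In MASH-2 they took 0.0760%, 0.0955% and 0.112%. In MAFL-2 the order was the opposite, with 0.190%, 0.153% and 0.134%, and in MAFL-1 the values were 0.0872%, 0.0941% and 0.0876%. The 2 MAFL sections did not share a direction. Because zone moves with class, the comparisons below were repeated with the spots ranked within zones as well.

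**Figure D2:**
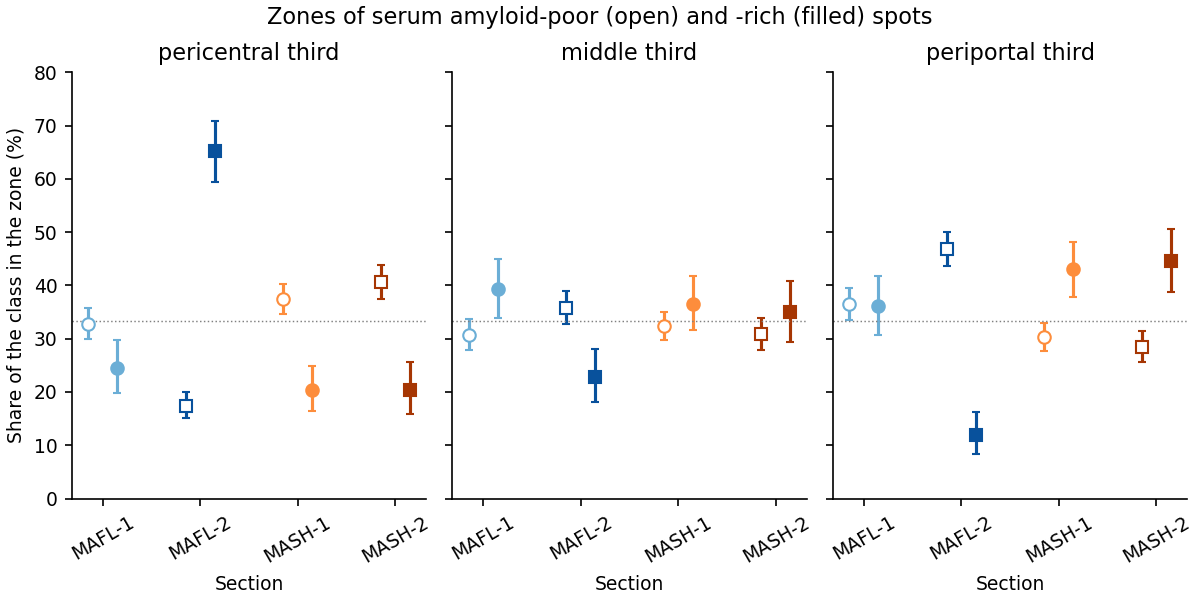
Share of poor (open) and rich (filled) spots that lay in the pericentral, middle and periportal class of each section, in percent, with exact binomial 95% intervals. The dotted line is an equal share. Rich spots of MAFL-2 were 65.3% pericentral, while those of MASH-1 and MASH-2 were 43.0% and 44.6% periportal.

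Over all 4 sections together, few genes separated rich from poor spots. The fit over summed counts, with the section as a block (edgeR's quasi-likelihood test, Benjamini-Hochberg adjusted p of 0.05), called 22 of 12502 genes higher (0.176%) and 1 lower (0.008%). The 22 were Mmp12, Ccl22, Clec4d, Ccl4, Ccl2, Gpnmb, Bcl2a1b, Cxcl10, Ubd, S100a4, Lilr4b, Basp1, Il1rn, Gsta1, Anxa1, Tlr2, Cyth4, Coro1a, Rhoc, Cd44, Cxcl16 and Srgn. All 22 were also called within MASH alone and with zone-matched ranking, which called 76 higher (0.607% of 12522) and 6 lower (0.0479%). Both use the same sections, so this is no separate support. None of the 22 was among the 4 genes called higher within MAFL (0.032%). The count of 23 in both directions moved with each section: it was 4 without MASH-2, 7 without MASH-1, 43 without MAFL-1 and 155 without MAFL-2.

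Ubd, a ubiquitin-like protein induced by interferon gamma and tumour necrosis factor, stood at 2.12 CPM in rich against 0.822 in poor spots of MAFL-1, 2.77 against 1.66 in MAFL-2, 16.2 against 6.43 in MASH-1 and 49.7 against 17.1 in MASH-2. It was higher in rich spots of 4 of 4 sections, as were 6.37% of all genes tested, by 1.40 on the log2 scale (adjusted p = 4.4e-06). Cxcl10, a chemokine that attracts T cells, had 3.60 against 2.59, 5.17 against 2.38, 16.2 against 4.37 and 16.6 against 6.88 CPM in the same order, a difference of 1.41 (adjusted p = 0.0020). Both genes were higher in the rich spots of each section, and their MASH levels lay above the MAFL levels in both classes. Ccl2, which attracts monocytes, had 0.848 against 0.696, 2.22 against 0.774, 3.17 against 0.933 and 9.11 against 2.80 CPM (log2 difference 1.57, adjusted p = 0.0036). Il1rn, the secreted antagonist of interleukin 1, had 4.03 against 2.97, 4.25 against 3.59, 11.3 against 6.05 and 25.8 against 9.60 CPM (0.99, adjusted p = 0.033). Tlr2, a receptor of bacterial lipopeptides that also binds serum amyloid A, had 2.97 against 2.40, 4.43 against 2.43, 6.76 against 4.60 and 12.1 against 5.40 CPM (0.81, adjusted p = 0.047). Ubd, Ccl2 and Tlr2 were low enough in MAFL that single UMIs weigh in these values, and Cxcl10 and Il1rn were at 5.17 CPM or less there.

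Among genes with a mean of at least 20 CPM, the same fit named Mmp12, Rhoc, Cxcl16 and Srgn. Mmp12, the macrophage elastase, had 1.48 against 0.632 CPM in MAFL-1, 0.924 against 0.718 in MAFL-2, 42.2 against 7.62 in MASH-1 and 97.1 against 24.7 in MASH-2. Its log2 difference was 2.12 (SE 0.15, adjusted p = 0.00057). The level in MASH was more than that of any MAFL class, and the MAFL values rested on few UMIs. Cxcl16, a membrane-bound chemokine and scavenger receptor, had 16.7 against 14.0, 14.4 against 12.4, 29.8 against 21.9 and 46.1 against 28.5 CPM (0.47, SE 0.08, adjusted p = 0.021). Rhoc, a GTPase of the cytoskeleton, differed by 0.51 (SE 0.09, adjusted p = 0.033) and Srgn, a proteoglycan of leukocyte granules, by 0.40 (SE 0.08, adjusted p = 0.047). Ighg3, an immunoglobulin heavy chain and the 1 lower gene, was at 0 in all MAFL spots, at 0.205 against 0.257 CPM in MASH-1 and at 1.63 against 13.6 in MASH-2, so its call rested on MASH-2.

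Saa3, the serum amyloid gene that took no part in the ranking, was higher in rich spots of all 4 sections. It had 26.5 CPM in rich against 9.87 in poor spots of MAFL-1, 35.5 against 11.3 in MAFL-2, 74.6 against 12.3 in MASH-1 and 104 against 19.4 in MASH-2. Every rich value lay above every poor value. Within MAFL the log2 difference was 1.55 (SE 0.12, adjusted p = 5.1e-13) and within MASH 2.51 (SE 0.08, adjusted p = 5.4e-27), which is 5.68-fold. The difference between the groups was itself called, at 0.96 (SE 0.14, adjusted p = 2.1e-05). The classes were also further apart in Saa1 and Saa2 in MASH than in MAFL, which this difference does not take into account. The fit that assumes 1 difference for all sections gave 2.17 with an adjusted p of 0.26 for Saa3, and DESeq2 called it there (2.04, adjusted p = 1.2e-09). The contrasts within each group, taken from the fit with the interaction term, gave log2 differences of 1.97 to 2.61 for Saa3 in MASH and 1.42 to 1.65 in MAFL, called each time, when spots were ranked within zones, when the 25% of spots richest in immune genes were left out, and when 1 section was left out.

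Saa4, the constitutive family member, did not follow. It had 391 against 348 CPM in MAFL-1, 330 against 300 in MAFL-2, 299 against 311 in MASH-1 and 293 against 355 in MASH-2. Rich and poor values overlapped, and the ratio was above 1 in both MAFL sections and below 1 in both MASH sections. The log2 difference was 0.15 (SE 0.06, adjusted p = 0.81) within MAFL and -0.16 (SE 0.06, adjusted p = 0.11) within MASH, neither called, and the difference between the groups was -0.32 (SE 0.08, adjusted p = 0.035), a call that held in 12 of 21 alternatives. Along the steps of the ranking Saa4 went from 317 to 377 plain CPM in MAFL-1 and from 356 to 333 in MASH-2.

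**Figure D3:**
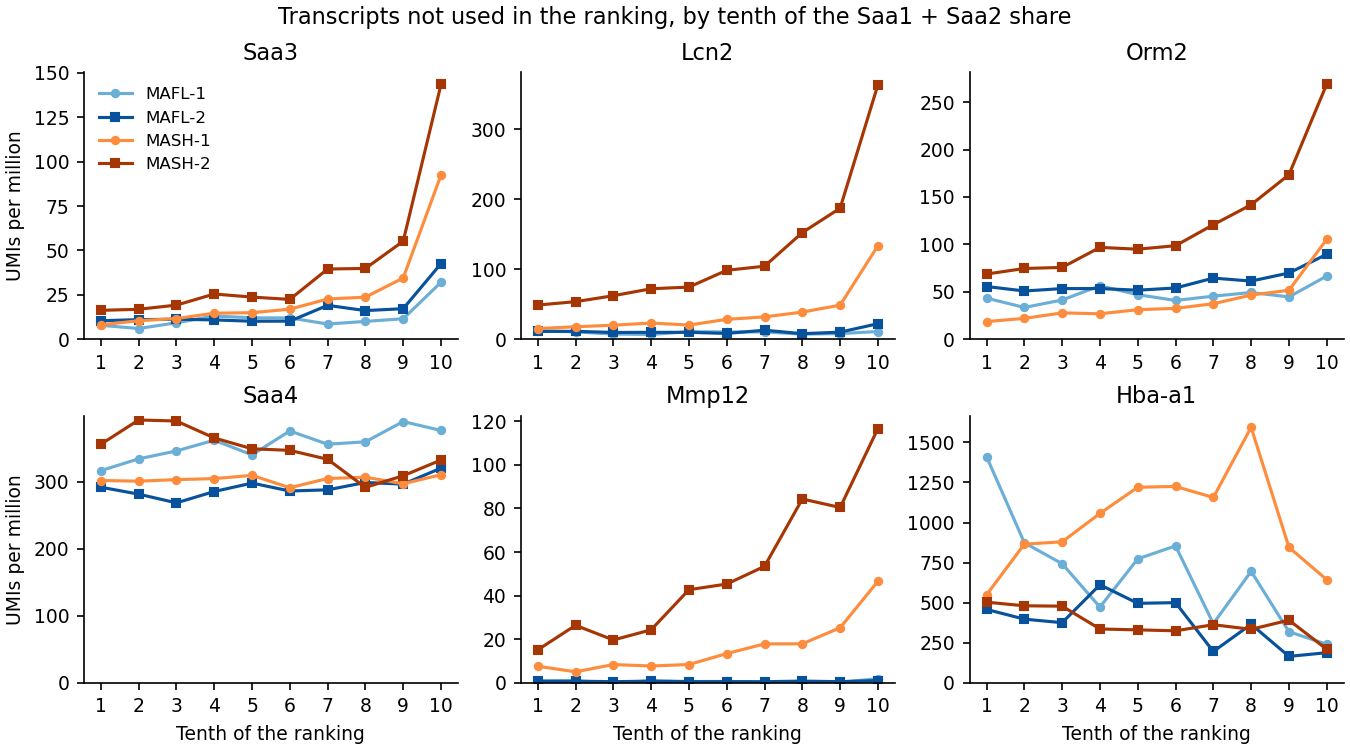
Plain CPM of Saa3, Lcn2, Orm2, Saa4, Mmp12 and Hba-a1 in each of 10 equal steps of the Saa1 and Saa2 ranking, 1 line per section. Saa3, Lcn2, Orm2 and Mmp12 end highest in the last step of both MASH sections, while Saa4 stays between 292 and 377 at both ends in every section.

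Lcn2, which encodes the siderophore-binding lipocalin 2, had 9.96 CPM in rich against 9.74 in poor spots of MAFL-1, 19.8 against 10.9 in MAFL-2, 105 against 19.8 in MASH-1 and 285 against 59.5 in MASH-2. The 2 classes were alike in MAFL-1 and far apart in both MASH sections. Within MASH Lcn2 rose by 2.32 (SE 0.07, adjusted p = 1.3e-15) and within MAFL the difference of 0.54 (SE 0.16) was not called (adjusted p = 0.45). It was called in MAFL without MAFL-1 (0.86, adjusted p = 0.00022). The interaction was 1.79 (SE 0.17, adjusted p = 9.1e-07). Along the ranking Lcn2 went from 15.2 to 133 plain CPM in MASH-1 and from 48.8 to 363 in MASH-2, against 11.94 to 11.005 in MAFL-1. Orm2, an orosomucoid that binds lipophilic ligands in plasma, had 59.3 against 45.3, 87.0 against 55.8, 87.8 against 26.0 and 221 against 78.6 CPM. Orm2 was higher in the rich spots of each section and was called in MAFL (0.53, SE 0.08, adjusted p = 0.00028), in MASH (1.61, SE 0.07, adjusted p = 1.5e-18) and for the interaction (1.08, SE 0.11, adjusted p = 3.4e-08). Its MAFL call was lost without MAFL-2 (0.39, adjusted p = 0.29) and without immune-rich spots (0.50, adjusted p = 0.83).

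Transcripts of the abundant secreted acute phase proteins moved less. Within MASH, 392 of 12502 genes were called higher (3.14%) and 196 lower (1.57%), and of 30 tested positive acute phase genes 11 were higher and none lower, with a median log2 difference of 0.12 against -0.01 over all genes. Without MASH-1 the fit called 244 genes higher and 138 lower, and without MASH-2 149 and 19, with 9 and 8 of the 30 acute phase genes higher. The 11 were Saa3, Lcn2, Orm2, Il1rn, Cd14, Steap4, Apcs, Serpina3n, Hp, Orm1 and Hpx. Hp, which encodes the haemoglobin binder haptoglobin, had 7223 against 5790 CPM in MASH-1 and 8769 against 7282 in MASH-2 (0.29, SE 0.05, adjusted p = 0.00019), and 8629 against 7992 and 6436 against 6554 in MAFL. Hpx, which encodes the haem binder hemopexin, differed by 0.28 (SE 0.05, adjusted p = 0.00082), and Orm1 by 0.29 (SE 0.05, adjusted p = 0.00033). Hp, Orm1 and Hpx thus rose 1.23-fold, 1.22-fold and 1.21-fold in MASH, where Saa3 rose 5.68-fold. The calls of Hp, Hpx and Orm1 were lost without MASH-1, and those of Orm1, Serpina3n and Cd14 without MASH-2.

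Steap4, a metalloreductase of iron and copper, had 109 against 78.5 CPM in MASH-1 and 189 against 122 in MASH-2, and 160 against 140 and 89.2 against 85.2 in MAFL. Its log2 difference within MASH was 0.55 (SE 0.06, adjusted p = 2.0e-08). Apcs, serum amyloid P and the major acute phase pentraxin of the mouse, had 158 against 117 and 146 against 104 CPM in MASH and 131 against 121 and 160 against 161 in MAFL. It rose by 0.46 (SE 0.06, adjusted p = 5.7e-07) within MASH, with an interaction of 0.41 (SE 0.09, adjusted p = 0.0053). Both rich values of Apcs in MASH lay above both poor values, while Steap4 in rich spots of MASH-1 lay below poor spots of MASH-2. Serpina3n, an inhibitor of serine proteases, rose by 0.34 (SE 0.06, adjusted p = 8.0e-05).

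Fga, Crp, Lbp and Hamp gave no call within MASH or within MAFL. The fibrinogen chain Fga had 1978 against 1922 CPM in MASH-1 and 1972 against 2026 in MASH-2, a log2 difference of 0.00 (SE 0.06, adjusted p = 1.0). Crp, the pentraxin that responds little in mice, differed by 0.05 (SE 0.06, adjusted p = 0.73), Lbp, which carries bacterial lipopolysaccharide, by 0.06 (SE 0.06, adjusted p = 0.74), and Hamp, the iron hormone hepcidin, by -0.12 (SE 0.06, adjusted p = 0.40). Orm3 had 30.007 against 28.8 and 29.2 against 32.7 CPM in MASH and 5.30 against 4.93 and 25.9 against 15.1 in MAFL, and its interaction was -0.68 (SE 0.17, adjusted p = 0.032), called in 12 of 21 alternatives. The Orm genes are close paralogs whose reads may be split. Of 14 negative acute phase genes, 2 were lower and none higher within MASH (median -0.10), beside 1.57% and 3.14% of all genes. Serpina6, the corticosteroid carrier of plasma, had 185 against 209 and 137 against 173 CPM (-0.25, SE 0.06, adjusted p = 0.0075, lost without MASH-2), and Rbp4, the retinol carrier, 5188 against 5935 and 4278 against 4956 (-0.20, SE 0.05, adjusted p = 0.012, lost without either MASH section). Alb differed by -0.07 and Ttr by -0.12, neither called (adjusted p = 0.76 and 0.19). With zone-matched ranking 8 of the 14 were lower, beside 2.48% of all genes. Without immune-rich spots none was, but only 0.0334% of all genes were lower there.

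**Figure D4:**
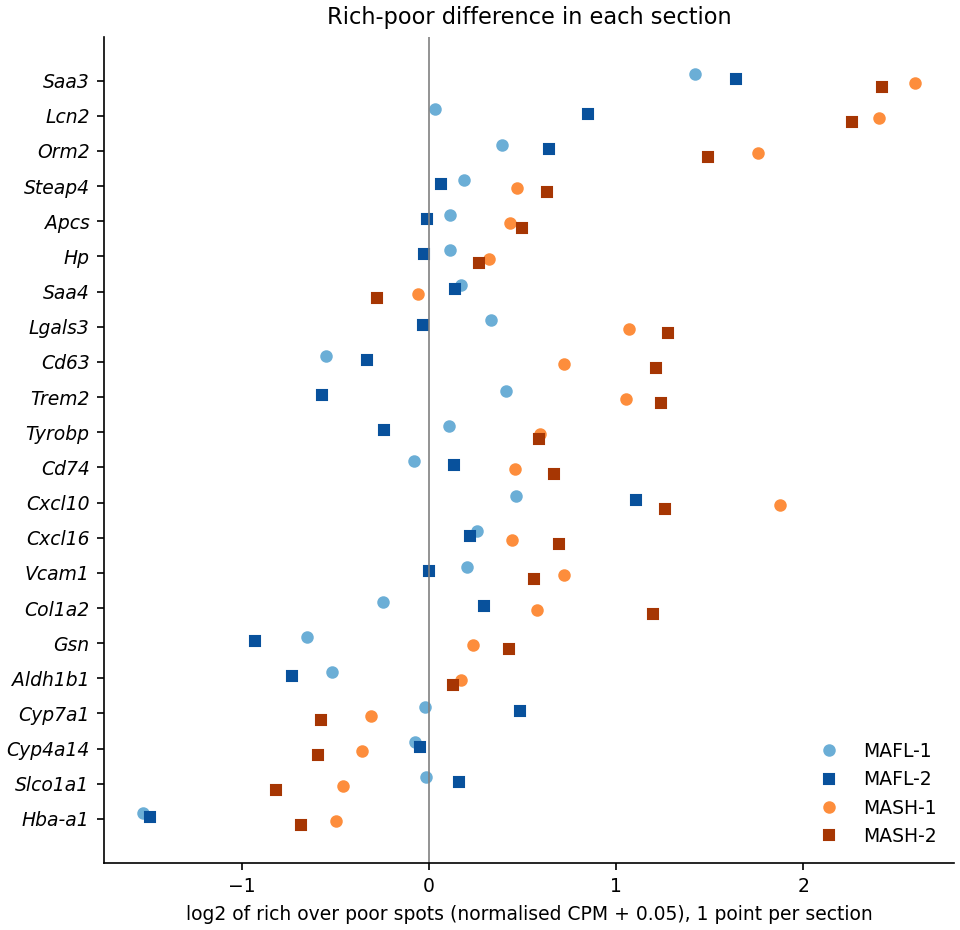
Log2 ratio of rich to poor spots, from normalised CPM plus 0.05, in each of the 4 sections for 22 genes. Saa3 is above 0 in every section, Lcn2 and Orm2 are highest in the MASH sections, and Saa4 lies near 0.

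Transcripts of the pathways known to induce Saa1 and Saa2 were then compared. Of 18 tested genes of interleukin 6 and STAT3 signalling, none was higher and 1, Lifr, lower within MASH (median -0.02), beside 3.14% and 1.57% of all genes. Lifr, the receptor of leukaemia inhibitory factor, had 56.6 against 69.5 CPM in MASH-1 and 50.3 against 80.9 in MASH-2 (-0.48, SE 0.10, adjusted p = 0.025), a call lost without MASH-2. The receptor chains Il6ra (-0.06) and Il6st (-0.09) were not called. Stat3 had 45.0 against 40.0 and 47.3 against 47.1 CPM (0.09, SE 0.07, adjusted p = 0.62), and Socs3, its feedback inhibitor, 3.89 against 3.18 and 3.54 against 2.59 CPM (0.35, SE 0.26, adjusted p = 0.57). The C/EBP genes Cebpb (-0.10, adjusted p = 0.44) and Cebpd (-0.07, adjusted p = 0.83) were not called either. A signalling protein can be active at an unchanged transcript level, and protein was not measured.

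Of 27 tested genes of interleukin 1, tumour necrosis factor and NF-kB signalling, 9 were higher and none lower within MASH (median 0.31, against 3.14% of all genes called higher). They were the chemokines Cxcl10 and Ccl2, the adhesion molecules Vcam1 and Icam1, the NF-kB subunit Relb, the receptor Tlr2, and Tnfaip2, Tnip1 and Tnfaip3, the last a feedback inhibitor of NF-kB. Vcam1 had 43.9 against 26.6 CPM in MASH-1 and 57.3 against 38.8 in MASH-2 (0.64, SE 0.08, adjusted p = 6.1e-08), and 18.0 against 15.6 and 22.9 against 22.9 in MAFL. Icam1 had 21.1 against 14.9 and 33.6 against 20.1 CPM in MASH (0.63, SE 0.10, adjusted p = 1.4e-05). Relb had 4.20 against 2.03 and 7.62 against 3.36 CPM (1.12, SE 0.22, adjusted p = 0.00055). Without immune-rich spots 2 of 26 tested genes of this list were still called, Cxcl10 and Ccl2. Among 7 tested receptors that serum amyloid A is known to bind, Tlr2 was called (0.87, SE 0.17, adjusted p = 0.00067), a call lost without MASH-2. The formyl peptide receptor Fpr2 (0.28, adjusted p = 0.76), the lipoprotein receptor Scarb1 (-0.15, adjusted p = 0.18) and the scavenger receptor Cd36 (0.09, adjusted p = 0.82) were not. Of 26 interferon-response genes 4 were higher, Gbp2, Gbp3, Ifi47 and Psmb8 (median 0.14).

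Macrophage transcripts moved with the rich spots in MASH. Of 12 tested genes of lipid-associated macrophages (LAMs), 10 were higher and none lower (median 1.08), and of 15 monocyte and macrophage genes 12 were higher and none lower (median 0.73). Over all genes 3.14% were called higher there and 1.57% lower. Lgals3, the galactose-binding lectin galectin 3, had 49.98 against 23.8 CPM in MASH-1 and 117 against 48.2 in MASH-2 (1.19, SE 0.07, adjusted p = 4.1e-16), and 13.6 against 10.8 and 11.3 against 11.5 in MAFL. Trem2, the lipid receptor of these macrophages, had 16.7 against 8.01 and 31.3 against 13.2 CPM in MASH (1.16, SE 0.12, adjusted p = 1.0e-09) and 2.54 against 1.90 and 1.85 against 2.76 in MAFL. Gpnmb, a lysosomal glycoprotein, had 22.1 against 8.91 and 79.6 against 23.5 CPM in MASH (1.59, SE 0.10, adjusted p = 1.1e-14) and stayed under 0.5 CPM in MAFL. Spp1, osteopontin, had 104 against 72.8 and 402 against 185 CPM and was not called in the main fit (0.84, SE 0.20, adjusted p = 0.26). It was called in 3 of 4 alternatives, whose log2 differences ran from 0.52 to 1.11. For Lgals3, Trem2 and Gpnmb both MASH sections were higher in rich spots, and MASH-2 was higher than MASH-1 in both classes.

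The same lists gave summed levels that did not rise in MAFL. The LAM genes summed to 217 plain CPM in rich against 267 in poor spots of MAFL-1 and 162 against 186 in MAFL-2, but to 437 against 240 in MASH-1 and 1164 against 481 in MASH-2. The monocyte and macrophage genes summed to 226 against 220, 254 against 260, 839 against 563 and 1107 against 655. Rich over poor was thus 0.816 to 1.03 in MAFL and 1.49 to 2.42 in MASH. Cd74, which encodes the chaperone of MHC class II and binds the cytokine MIF, had 80.3 against 84.9 and 94.0 against 85.8 CPM in MAFL, and 303 against 220 and 530 against 334 in MASH (0.56, SE 0.06, adjusted p = 9.6e-09). Of 11 MHC class II and dendritic cell genes, 7 were higher in MASH (median 0.54), beside 3.14% of all genes. Of 15 Kupffer cell genes, 4 were higher, the complement genes C1qa, C1qb and C1qc and the receptor Clec1b (median 0.17), and without MASH-1 none was higher and 3 were lower (of all genes, 1.91% and 1.08%). Clec4f, the marker of resident Kupffer cells, had 150 against 138 and 115 against 145 CPM and was not called (-0.09, adjusted p = 0.73). In summed spots, more cells of a type and more RNA per cell cannot be told apart.

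Leaving out the 25% of spots highest in neutrophil, macrophage, LAM, T cell and B cell genes, before ranking, reduced the calls within MASH to 22 higher (0.184% of 11969 tested) and 4 lower (0.0334%). Of these, 21 and 4 were among the 392 and 196. Saa3 still rose by 1.97 (adjusted p = 3.8e-15), Lcn2 by 1.87 (adjusted p = 6.3e-17), Orm2 by 1.34 (adjusted p = 2.0e-05), Steap4 by 0.47 (adjusted p = 0.00011) and Mmp12 by 0.91 (adjusted p = 0.00012). The positive acute phase list had 9 called genes of 30, the LAM list 2 of 12, and the monocyte and macrophage list none of 14. Calls of Cd63, Cd74, Lyz2, Trem2, Gpnmb and Lgals3 were lost, with Trem2 at 0.43 and Lgals3 at 0.44. Fewer spots and fewer genes were tested here. The spots were left out by the UMIs of these immune lists, which hold Cd63, Lyz2, Trem2, Gpnmb, Lgals3 and Mmp12. Smaller differences and fewer calls of the LAM and the monocyte and macrophage genes are thus partly set by the filter. The acute phase list took no part in the filter, so its count cannot be set against theirs. Among the 22, Spp1 was called here and not in the main fit.

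Neutrophil genes were scarce and uneven. Their 13 markers summed to 11.4 plain CPM in rich against 10.0 in poor spots of MAFL-1, 49.6 against 16.8 in MAFL-2, 11.7 against 9.80 in MASH-1 and 49.7 against 15.1 in MASH-2. S100a8, a calcium-binding protein of neutrophils and monocytes, had 17.5 against 6.36 CPM in MAFL-2 and 19.5 against 4.55 in MASH-2, but 4.87 against 3.60 in MAFL-1 and 4.10 against 3.12 in MASH-1. It was not called within MASH (1.48, SE 0.60, adjusted p = 0.47), and none of 5 tested neutrophil genes was. The sections split by number here and not by group. Mpo, the peroxidase of neutrophil granules, was called within MAFL (2.76, SE 0.45, adjusted p = 0.00044) on MAFL-2 alone, where it had 7.57 against 1.11 CPM, with 0 in both classes of MAFL-1.

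**Figure D5:**
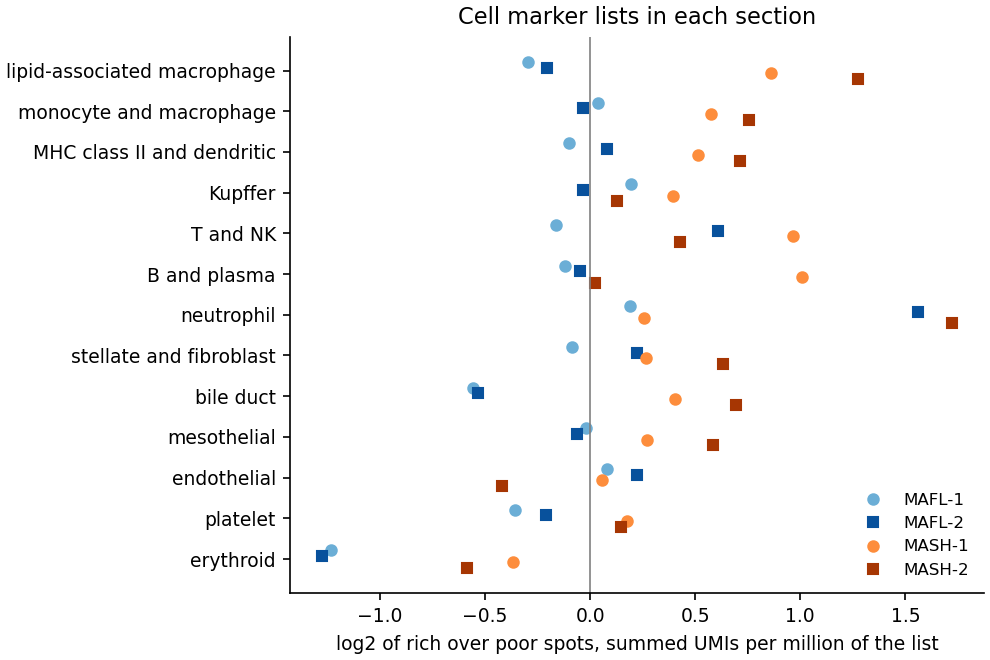
Log2 ratio of rich to poor spots of the summed plain CPM of 13 cell type marker lists, 1 point per section. All lists but the endothelial and the erythroid are above 0 in both MASH sections, with B and plasma cell genes at 0.02 in MASH-2. Neutrophil genes stand out in MAFL-2 and MASH-2, and erythroid genes are below 0 in all 4 sections.

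Genes of stellate cells and fibroblasts, which lay down scar matrix, were partly higher in rich spots of MASH. Of 15 tested, 6 were higher and none lower (median 0.34), beside 3.14% and 1.57% of all genes. Timp1, the inhibitor of matrix proteases, had 8.50 against 1.90 CPM in MASH-1 and 24.9 against 4.97 in MASH-2 (2.26, SE 0.16, adjusted p = 3.5e-14), and at most 1.45 CPM in MAFL. Col1a1, a chain of type I collagen, had 15.4 against 8.88 and 61.2 against 20.8 CPM (1.27, SE 0.16, adjusted p = 0.0016), and Col1a2, the other chain, 25.9 against 17.4 and 80.9 against 35.2 (0.95, SE 0.16, adjusted p = 0.042). In MAFL Col1a2 had 10.4 against 12.3 and 13.5 against 10.998 CPM. Timp1 and Col1a1 were called without immune-rich spots (1.68 and 0.71), and Col1a2 was not (0.40, adjusted p = 0.21). Ly6d, a surface protein with a lipid anchor, had 26.4 against 10.4 and 84.2 against 31.4 CPM in MASH.

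Some metabolic genes of hepatocytes were lower in rich spots of MASH. Of 24 tested cytochrome P450 genes 8 were lower and none higher (median -0.40, with 1.57% of all genes called lower), of 15 bile acid genes 5 were lower, and of 18 genes of urea and amino acid metabolism 4 were. Lower were also 2 of 20 genes of fatty acid oxidation (median -0.11), 2 of 19 of lipogenesis (median -0.02) and 1 of 15 of lipid droplets (median -0.09), while none of 18 cholesterol synthesis genes was called (median 0.07). Slco1a1, an uptake transporter of organic anions, had 171 against 235 CPM in MASH-1 and 42.7 against 75.1 in MASH-2 (-0.60, SE 0.07, adjusted p = 3.5e-06), and 264 against 266 and 239 against 214 in MAFL. Cyp4a14, a fatty acid hydroxylase under PPAR alpha, had 801 against 1026 and 374 against 563 CPM (-0.47, SE 0.06, adjusted p = 1.5e-07). Acot1, an acyl-CoA thioesterase, had 112 against 148 and 65.6 against 96.2 (-0.47, SE 0.07, adjusted p = 2.1e-05), and Sult2a8, a bile acid sulfotransferase, 385 against 488 and 183 against 293 (-0.50, SE 0.06, adjusted p = 3.4e-06). In each of these genes rich was below poor in both MASH sections, but rich spots of MASH-1 lay above poor spots of MASH-2, which was lower in both classes.

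Cyp7a1, which sets the pace of bile acid synthesis, had 93.6 against 116 CPM in MASH-1 and 52.1 against 77.6 in MASH-2, and 14.2 against 14.4 and 98.1 against 70.02 in MAFL. Its call within MASH (-0.42) was lost without immune-rich spots, as were those of Car5a, Gstt3 and Prodh, while Slco1a1 (-0.37, adjusted p = 0.028), Cyp4a14 (-0.28, adjusted p = 0.031), Acot1 (-0.31, adjusted p = 0.028) and Sult2a8 were the 4 still called. When spots were ranked within zones, 17 of the 24 cytochrome P450 genes, 8 of the 15 bile acid genes and 14 of the 18 urea and amino acid genes were lower, beside 2.48% of all genes (and 2.69% higher). Without MASH-2, which ended the calls of Cyp7a1, Sult2a8, Gstt3 and Prodh, the counts were 2, 1 and 0 (of all genes, 1.18% were higher and 0.151% lower). None of 18 genes of endoplasmic reticulum secretion, 20 ribosomal genes, 17 nuclear genes of oxidative phosphorylation or 19 coagulation genes was called within MASH.

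Of 13 endothelial genes 2 were lower within MASH, beside 1.57% of all genes tested. Clec4g, a lectin of liver sinusoidal endothelium, had 38.3 against 47.5 CPM in MASH-1 and 29.9 against 53.6 in MASH-2 (-0.55, a call lost without MASH-2), and Wnt2, a ligand of pericentral endothelium, 2.46 against 3.54 and 1.77 against 4.97 (-0.94, SE 0.26, adjusted p = 0.023). Both were lower in each MASH section, with the larger gap in MASH-2. Haemoglobin transcripts were lower in the rich spots of every section, a pattern that 7.43% of all genes tested shared. Hba-a1, the alpha chain, had 303 against 873 CPM in MAFL-1, 175 against 493 in MAFL-2, 665 against 939 in MASH-1 and 253 against 407 in MASH-2 (-1.51 within MAFL and -0.59 within MASH). All haemoglobin genes together took 0.141% against 0.338%, 0.0783% against 0.197%, 0.299% against 0.385% and 0.103% against 0.157% of the UMIs. Both Hba-a1 calls were lost with zone-matched ranking and without immune-rich spots (within MASH -0.56 and -0.58, adjusted p = 0.73 and 0.94). The part of blood content in the other differences was not tested. Mitochondrial transcripts made up 3.93% against 3.99%, 5.44% against 4.72%, 3.49% against 3.86% and 4.53% against 5.03%, with no common direction.

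Within MAFL few genes separated the classes. The contrast called 4 genes higher (0.032%), Saa3, Orm2, Cyp2c68 and Mpo, and 12 lower (0.096%), among them haemoglobin genes, Gsn, Aldh1b1, Tstd1 and Cib3. Gsn, which encodes the actin-severing protein gelsolin, had 37.5 against 58.9 CPM in MAFL-1 and 19.6 against 37.4 in MAFL-2 (-0.77, SE 0.09, adjusted p = 9.1e-07), and 38.3 against 32.5 and 104 against 77.0 in MASH. Aldh1b1, a mitochondrial aldehyde dehydrogenase, had 36.2 against 51.9 and 72.2 against 120 CPM in MAFL (-0.65, SE 0.08, adjusted p = 3.6e-07). With zone-matched ranking 3 genes were called (0.024%), Saa3 (1.57), Orm2 (0.57) and Mpo, all higher. Without MAFL-1 the count rose to 132 higher and 68 lower and without MAFL-2 it was 3 and 8. The rich spots of MAFL-2 were mostly pericentral and those of MAFL-1 were not, and what part zone has in these counts beyond the zone-matched ranking was not tested.

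The interaction tested whether the rich-poor difference of a gene differed between MASH and MAFL. It was positive (the rich-poor log2 difference in MASH lay above that in MAFL) for 110 of 12502 genes (0.880%) and negative for 85 (0.680%), and with library totals alone for 154 and 37. With zone-matched ranking it was called for 46 (0.367%) and 39 (0.311%), of which 38 and 26 were among the first. Leaving out MAFL-1 raised the count of 195 in both directions to 412, and leaving out MASH-2 lowered it to 78. The 5 highest named genes were Lcn2, Ly6d, Cd63, Tstd1 and Cib3. Ly6d had 8.27 against 6.77 CPM in MAFL-1 and 4.06 against 7.13 in MAFL-2, and its interaction was 1.60 (SE 0.22, adjusted p = 2.3e-05). Cd63, a tetraspanin of late endosomes, had 11.7 against 17.1 and 9.05 against 11.4 CPM in MAFL but 44.2 against 26.8 and 127 against 54.8 in MASH, an interaction of 1.45 (SE 0.21, adjusted p = 0.0027). Tstd1, a thiosulfate sulfurtransferase, had 7.84 against 13.9 and 11.3 against 20.1 CPM in MAFL and 32.0 against 26.1 and 40.7 against 27.6 in MASH (1.25, adjusted p = 6.6e-06). Cib3 had 26.7 against 33.1 and 29.9 against 53.4 CPM in MAFL and 33.4 against 25.3 and 42.0 against 25.7 in MASH (1.16, adjusted p = 6.2e-05). For Cd63, Tstd1 and Cib3 the rich spots were the lower class in both MAFL sections and the higher in both MASH sections. The ratios of the groups did not overlap, with MASH above, for 21.4% of all genes tested, and with MASH below for 20.7%. The Saa1 and Saa2 share itself differed 2.44-fold and 2.26-fold between the classes in MAFL, against 8.61-fold and 6.56-fold in MASH. The interaction does not take this into account, so a gene that follows Saa1 and Saa2 alike in both groups can also have one. How far this holds for the named genes was not tested.

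The 5 lowest named genes were Car5a, Gstt3, Cyp7a1, Cyp2c68 and Clec4g. Car5a, the mitochondrial carbonic anhydrase that feeds the urea cycle, had 18.4 against 18.2 and 41.6 against 29.1 CPM in MAFL and 26.0 against 37.0 and 26.7 against 39.7 in MASH (-0.88, adjusted p = 0.00015). Cyp2c68, a cytochrome P450, had 101 against 90.6 and 153 against 106 CPM in MAFL and 77.4 against 101 and 73.6 against 99.0 in MASH (-0.76, adjusted p = 2.5e-05). Gstt3 (-0.82, adjusted p = 0.0012), Cyp7a1 (-0.80, adjusted p = 0.00063) and Clec4g (-0.70, adjusted p = 0.040, called in 11 of 21 alternatives) were also negative. For Car5a and Cyp2c68 rich spots were the higher class in MAFL, mostly through MAFL-2, and the lower class in MASH. A list of 16 pericentral genes held out of the zone score moved likewise. Its summed rich level over the poor level was 0.959 in MAFL-1, 1.87 in MAFL-2, 0.795 in MASH-1 and 0.704 in MASH-2. What part zone has in the values of these 5 genes was not tested beyond the zone-matched ranking.

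Lastly, rich spots of MASH were compared with rich spots of MAFL. Of 11053 genes tested, 99 were higher in MASH (0.896%) and 32 lower (0.290%). For 50.3% of all genes tested the 2 groups did not overlap, so lack of overlap carries little here. The count of 131 in both directions was 11 without MAFL-1, 63 without MASH-2 and 451 without MASH-1. Lyz2, the lysozyme of macrophages, had 60.7 and 65.0 CPM in rich spots of MAFL and 284 and 333 in those of MASH (2.30, SE 0.19, adjusted p = 0.0038). H2-Eb1, an MHC class II chain, had 30.1 and 27.5 against 107 and 207 CPM (2.45, adjusted p = 0.024), Cd74 81.0 and 95.3 against 306 and 542 (2.27, adjusted p = 0.013), and Mmp12 1.496 and 0.936 against 42.7 and 99.3 (5.86, adjusted p = 0.034). In poor spots the same fit gave 1.59 for Lyz2, 1.78 for H2-Eb1 and 1.70 for Cd74.

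Lower in rich spots of MASH were Nnmt, a nicotinamide methyltransferase, at 148 and 206 against 50.8 and 70.1 CPM (-1.55, adjusted p = 0.021), Alas1, the first enzyme of haem synthesis, at 808 and 701 against 285 and 288 (-1.40, adjusted p = 0.013), and Tff3, a trefoil peptide, at 35.9 and 37.2 against 15.6 and 11.5 (-1.42, adjusted p = 0.020). Lifr (-1.37) and the carboxylesterase Ces3b (-1.36) were also called. Among the acute phase genes, Saa3 was higher in rich spots of MASH, at 26.7 and 35.9 against 75.4 and 106 CPM (1.53, SE 0.23, adjusted p = 0.021). In poor spots its difference was 0.57 (adjusted p = 0.28). Lcn2 (3.71, adjusted p = 0.14), Orm2 (1.08, adjusted p = 0.39) and Saa4 (-0.28, adjusted p = 0.47) were not called between the groups.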

How the data were processed

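The deposited counts, whole numbers of UMIs of each of 31253 features in each spot, came from Space Ranger 1.2.2 as run by the authors (version per the file headers, build mm10 per the submitters' processing notes). Spot positions were not used here.

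Spots under 500 UMIs (3 in MAFL-1, 3 in MASH-1) were left out, ties in the ranking were broken at random, and counts were summed per class and section without Saa1 and Saa2. The sums went into edgeR 4.0.16 (TMM scaling, genes kept by filterByExpr, robust quasi-likelihood fit, Benjamini-Hochberg) in R 4.3.3, tested on simulated data, with DESeq2 1.42.0 beside it and Python 3.11.15 for the rest. CPM of the class comparisons are scaled by TMM, and 3 UMIs in a whole section come to 0.0470 to 0.0930 plain CPM. Contrasts within MAFL and within MASH, from the fit with the interaction term, were chosen after seeing the data. Spots, members and the 37 gene lists (558 of 560 symbols found) were chosen with earlier results of these data known. Named genes were those past 0.05 whose mean reached 20 CPM, with 1 direction in every section, up to 10 per direction (5 for the group comparisons), without predicted, Mup, ribosomal, mitochondrial, haemoglobin, immunoglobulin and sex-linked genes, plus Saa genes and list members. Haemoglobin genes, Ighg3, Mpo and the further members of short counts were named after their values were seen.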

Additional observations from a re-analysis of the deposited data

Results flagged for a closer look

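The share of rich spots in the pericentral zone was 65.3% in MAFL-2, far from the 20.4% to 24.5% of the other 3 sections. The rich-poor log2 ratio of Ighg3 was -3.02 in MASH-2, far from the other 3 sections. With 4 sections, chance alone sets 1 value apart in about 1 of 20 such groups. That rate does not hold for Ighg3, whose MAFL ratios were fixed.

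For 19 of the genes named in the report the rich-poor difference itself differed between MASH and MAFL (edgeR, adjusted over all 12502 genes). The difference in MASH minus that in MAFL was positive for Lcn2 (1.79), Ly6d (1.60), Cd63 (1.45), Tstd1 (1.25), Cib3 (1.16), Gsn (1.12), Orm2 (1.08), Lgals3 (1.04), Saa3 (0.96), Hba-a1 (0.92) and Apcs (0.41), on the log2 scale. It was negative for Car5a (-0.88), Gstt3 (-0.82), Cyp7a1 (-0.80), Cyp2c68 (-0.76), Clec4g (-0.70), Orm3 (-0.68), Slco1a1 (-0.67) and Saa4 (-0.32). The sign does not say in which group the classes lay further apart: Hba-a1 was lower in rich spots by less in MASH, and Slco1a1 separated the classes within MASH. The Saa1 and Saa2 share itself differed more between the classes in MASH than in MAFL, which these values do not take into account. Of 21 alternatives, 11 called this for Clec4g, 12 for Orm3 and for Saa4, and 16 to 21 for the other genes.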

How the results depend on the processing

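With 2 sections per group, every call rests on few samples. The count of genes separating rich from poor spots over all sections (23) was 10 with DESeq2, 162 with no filter on low counts, 0 with no section block (edgeR; 86 at an unadjusted p under 0.05 and 10 called by DESeq2 with the block), 44 with the top 10%, 15 with the top 25%, 40 against all other spots, 47 ranked by Saa2 alone, 82 zone-matched, 9 without the immune-rich 25%, and 4 to 155 leaving out 1 section. The interaction count (195) was 32 with DESeq2, 312 with no filter, 126 with the top 10%, 107 against all other spots, 105 by Saa2 alone, 118 with no bins, 85 zone-matched, 8 without the immune-rich 25%, and 78 to 412 leaving out 1 section. MASH against MAFL in rich spots (131) gave 261 with DESeq2, 962 with no filter, and 11 (without MAFL-1) to 451 (without MASH-1) leaving out 1 section. Within MAFL (16) the count was 3 zone-matched, 3 without the immune-rich 25% and 11 to 200 leaving out 1 section, and within MASH (588) it was 26 without the immune-rich 25% and 168 to 382. With 1 section left, that section is assumed to vary like the others.

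The labels share only replicate numbers, and deviations of same-numbered sections correlated at r = -0.14 over 10698 genes. With the replicate number as a block, 16 genes separated the classes, 220 had an interaction and 194 differed between groups in rich spots. A crossed pairing, chosen after seeing the data, gave 237. Library totals alone moved the median of all genes to 0.13 between groups in rich spots. Among the results listed here and the named genes, none of the alternatives run (4 for the contrast within MASH) turned the direction of a called value. Of the named genes' values within MASH, 163 stayed on their side of the threshold, called or not, 3 gained and 46 lost a call.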

Other observations

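Some gene groups of the rich spots stood apart from the acute phase. Within MASH, 2 of 15 immediate early and injury genes were higher, with Atf3, a stress-induced transcription factor, at 5.22 against 1.54 CPM in MASH-1 and 6.12 against 2.21 in MASH-2 (edgeR, log2 difference 1.61, SE 0.25, adjusted p = 1.5e-05). Of 14 genes of high density lipoprotein, which carries serum amyloid A, 4 were lower and 1, Apoa4, higher. Of all genes tested within MASH, 3.14% were called higher and 1.57% lower. The main apolipoprotein Apoa1 had 10296 against 10478 CPM in MASH-1 and 9869 against 10417 in MASH-2, a difference of -0.05 that was not called. Epcam, a marker of bile duct cells, had 1.27 against 4.11 and 1.29 against 2.54 CPM in MAFL and 2.97 against 2.19 and 10.6 against 6.03 in MASH (0.69 within MASH, adjusted p = 0.026). Thrsp, the lipogenic gene of the series title, had 310 against 368 and 416 against 491 CPM in MASH (-0.24, SE 0.06, adjusted p = 0.0044), a call lost without either MASH section and without immune-rich spots. Mif had 259 against 263 and 254 against 250 CPM and was not called (0.00, SE 0.06, adjusted p = 0.99).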
